A study of Caenorhabditis elegans with 12 samples.

Results

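The daf-2(e1370) mutant was compared with the N2 wild type in whole Caenorhabditis elegans animals by paired-end mRNA sequencing. The comparison takes 6 of the 12 libraries of the study, 3 of daf-2(e1370) and 3 of N2, chosen by the genotype on their labels. The other 6 libraries, 3 of the pfd-6(gk493446);daf-2(e1370) double mutant and 3 of pfd-6(gk493446), carry the same receptor mutation or the intact receptor together with an allele of the prefoldin subunit gene pfd-6, and are used here only to follow the calls. The mutant strain was CF1041 and the wild type was strain N2. Animals of every genotype were synchronized, raised on control RNA interference bacteria to the L4 larval stage, moved to plates with FUdR (a drug that blocks the production of progeny), and frozen at day 1 of adulthood. The second plates held bacteria for control or for pfd-6 RNA interference, and no label says which library came from which plates. The labels name 3 biological repeats, of which the last was sequenced as a later set, without its number. The mutation is present in every cell, so no tissue was targeted, and in bulk RNA fewer cells of a type and less RNA per cell cannot be told apart.

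daf-2 encodes the only insulin/IGF-1 receptor of the worm. When it signals, a kinase cascade through AGE-1, PDK-1 and the AKT kinases keeps the FOXO transcription factor DAF-16 out of the nucleus, and when signalling falls DAF-16 enters the nucleus and changes the expression of stress defence, metabolic and innate immunity genes. Animals with reduced daf-2 function are long-lived, and sod-3 and mtl-1 are the genes most often used to read DAF-16 activity. The e1370 allele is a missense change, so the level of daf-2 mRNA does not check the label.

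Total expected counts ranged between 23646949 and 32029679 for the mutant libraries and between 19394046 and 41009125 for the wild-type ones, with replicate 3 shallowest in each genotype. Replicate 3 of daf-2 stood apart: ribosomal protein genes took 1.45% of its counts, against 13.26% and 10.21% in the other daf-2 libraries and 9.59% to 12.58% in N2. Summed heat shock protein mRNA was 6133, 8973 and 4628 CPM in daf-2, against 6319, 7688 and 18990 CPM in N2, so replicate 3 of N2 stood apart in that class. CPM are counts per 1e6 of the library size after TMM scaling, which corrects for library composition. Defining genes of sperm, oocyte, embryo, muscle, pharynx, neuron, intestine, hypodermis and coelomocyte were detected in these whole animals, with 2 of 90 sperm genes at 0 in all 6 libraries and none of the other lists.

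The files of the genotypes differed in how counts were split where genes overlap on opposite strands. Among well covered genes whose exons overlap a gene of the other strand only, 51 of 2134 had fractional counts in at least 5 of the 6 libraries with the daf-2 mutation, against 138 in the 6 libraries without it. Among genes with an overlap on the same strand only, the numbers were 100 and 98 of 554. For a gene with an opposite-strand partner, genotype and counting therefore cannot be told apart. Where a called gene described below has such a partner, it is named as overlapping. Genes with such a partner made up 25.7% of the tested genes and 17 of the 87 called ones.

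At an adjusted p under 0.05, 87 of 13970 tested genes differed between daf-2 and N2, which is 0.623% of them (edgeR quasi-likelihood test with the replicate number as a block, Benjamini-Hochberg adjustment). Of these, 59 were higher in daf-2 (0.422%) and 28 were lower (0.2%). The changes were large, the smallest being 1.41 on the log2 scale, and all 87 had 1 sign in the 3 replicate pairs. In 83 of them no daf-2 library overlapped any N2 library, a separation seen in 18.1% of all tested genes. For a gene below the minimum count for testing in every library of a genotype, this separation is nearly built in. Such a gene was tested only because every library of the other genotype reached the minimum. For called genes of this kind the separation is therefore no separate evidence for the call. Many raised genes were close to silent in the wild type: 40 of the 59 averaged under 1 CPM in N2, and 13 of the 28 lowered genes averaged under 1 CPM in daf-2. An unadjusted p under 0.05 was reached by 2344 genes.

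**Figure D1:**
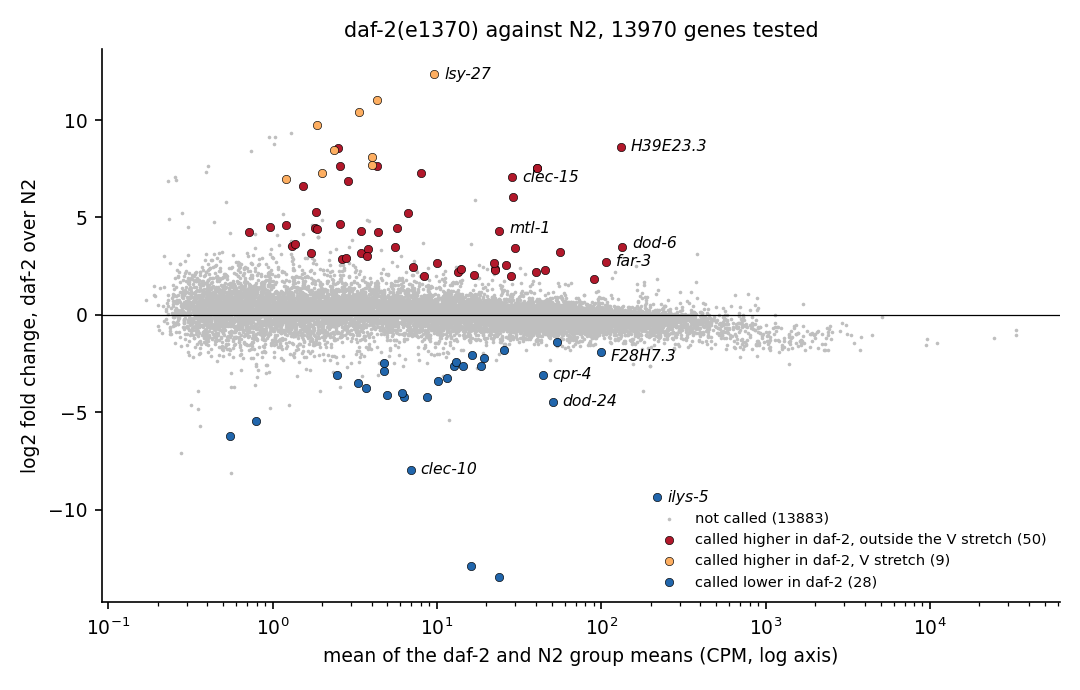
Log2 fold change of daf-2 over N2 (vertical axis) against the mean of the 2 group means in CPM (horizontal log axis) for 13970 genes, 1 point each, with called genes coloured. The 50 genes called higher outside the chromosome V stretch, the 9 called in that stretch and the 28 called lower all lie far from 0, and most of the raised ones lie at low mean CPM.

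The number of calls depended on which libraries were in the fit. Without daf-2 replicate 3 the blocked fit, which then rests on replicates 1 and 2 with 1 residual degree of freedom, called 2390 genes (17.5%), and the fit without the block called 65 (0.476%). Leaving out N2 replicate 3 gave 2597 calls, leaving out N2 replicate 2 gave 21, and leaving out daf-2 replicate 2 gave 10. These fits keep the block and also have 1 residual degree of freedom. The partner of the left-out library then no longer informs the genotype difference, so a whole replicate pair drops out. No gene of the 87 changed sign in any of 20 other fits at the same threshold. The genes tested in all 20 and called in every one were the metallothionein gene mtl-1, the transthyretin-related gene ttr-26, the lectin gene clec-15, the little-characterized genes H39E23.3 and F15B9.6, and the lysozyme gene ilys-5. Of 50 called genes chosen to be described, 30 missed the threshold without N2 replicate 2 and 32 without daf-2 replicate 2, sod-3 and dod-6 among them, while their log2 fold changes moved less. Without the block, 59 of the 87 were called. Among the genes lost there were ugt-18, hrg-2, F48D6.4, F45D11.16, F17E9.2, asah-2, nspc-13, F31C3.13 and F31C3.16. The log2 fold change of sod-3 stayed between 2.17 and 2.58, that of dod-6 between 2.97 and 3.83 and that of mtl-1 between 4.13 and 4.71.

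Some of the genes known to be raised by DAF-16 when daf-2 signalling is low rose in these animals. Of 32 tested, 5 rose (btb-16, hil-1, sod-3, dod-6 and mtl-1) and 0 fell, where 0.422% of all tested genes rose. Their median log2 fold change was 0.66, against 0.01 over all genes, and 20 of the 32 lay above 0. In 13 of them the genotypes did not overlap, where 18.1% of all tested genes had no overlap. The group's summed level, which its most abundant members carry, was 5029, 5912 and 2411 CPM in daf-2, against 3122, 4149 and 3495 CPM in N2, so it was lower in the mutant in the third pair. With daf-2 replicate 3 left out and no block, 5 of the 32 were again higher, dod-3 taking the place of btb-16, and the median was 0.55. The list is known from other daf-2 studies and was used here with earlier results of these data known.

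The mitochondrial superoxide dismutase gene sod-3 (WBGene00004932; WBcel235 chromosome X, 17092753 to 17094306) had 53.7, 32.7 and 26.7 CPM in daf-2, against 8.57, 7.29 and 5.98 CPM in N2. Every daf-2 library was above every N2 library. Its log2 fold change was 2.33 ± 0.23 (SE; edgeR adjusted p = 0.0172). Of its 881 exonic bases, 89 overlap genes of the other strand, C08A9.3 and lido-1.

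The metallothionein gene mtl-1 (WBGene00003473; chromosome V, 6691371 to 6691863), whose product binds metal ions, had 79.5, 33.6 and 24.3 CPM in daf-2, against 3.1, 1.97 and 1.34 CPM in N2. The lowest mutant library was thus far above the highest wild-type one, and the log2 fold change was 4.33 ± 0.26 (edgeR adjusted p = 0.00666). The secreted-protein gene dod-6 (WBGene00011869; chromosome III, 10197716 to 10198352), named for acting downstream of DAF-16, had 322, 278 and 136 CPM in daf-2, against 14.2, 31.4 and 19.8 CPM in N2. It was the most abundant raised gene per length, at 423 CPM per kilobase in daf-2 against 37.5 in N2, and rose by 3.47 ± 0.39 on the log2 scale (edgeR adjusted p = 0.0266). It was not called in the fit over all 12 libraries.

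The linker histone gene hil-1 had 31.3, 22.3 and 12.8 CPM in daf-2, against 5.82, 4.57 and 3.63 CPM in N2, a log2 fold change of 2.19 ± 0.25 (edgeR adjusted p = 0.0273). The BTB-domain gene btb-16 had 18.9, 13 and 8.2 CPM in daf-2, against 4.3, 3.54 and 2.15 CPM in N2, a log2 fold change of 1.99 ± 0.25 (edgeR adjusted p = 0.0385). In both genes the groups stayed apart, although replicate 3 was lowest in each genotype, and neither was called without the block (edgeR adjusted p = 0.0567 for hil-1 and 0.0962 for btb-16). Others of the list lay above the wild type without passing the test. The long noncoding RNA tts-1 had 931, 539 and 497 CPM in daf-2, against 174, 139 and 13.9 CPM in N2, with a log2 fold change of 3.1 ± 0.71 and an adjusted p of 0.132 in edgeR.

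**Figure D2:**
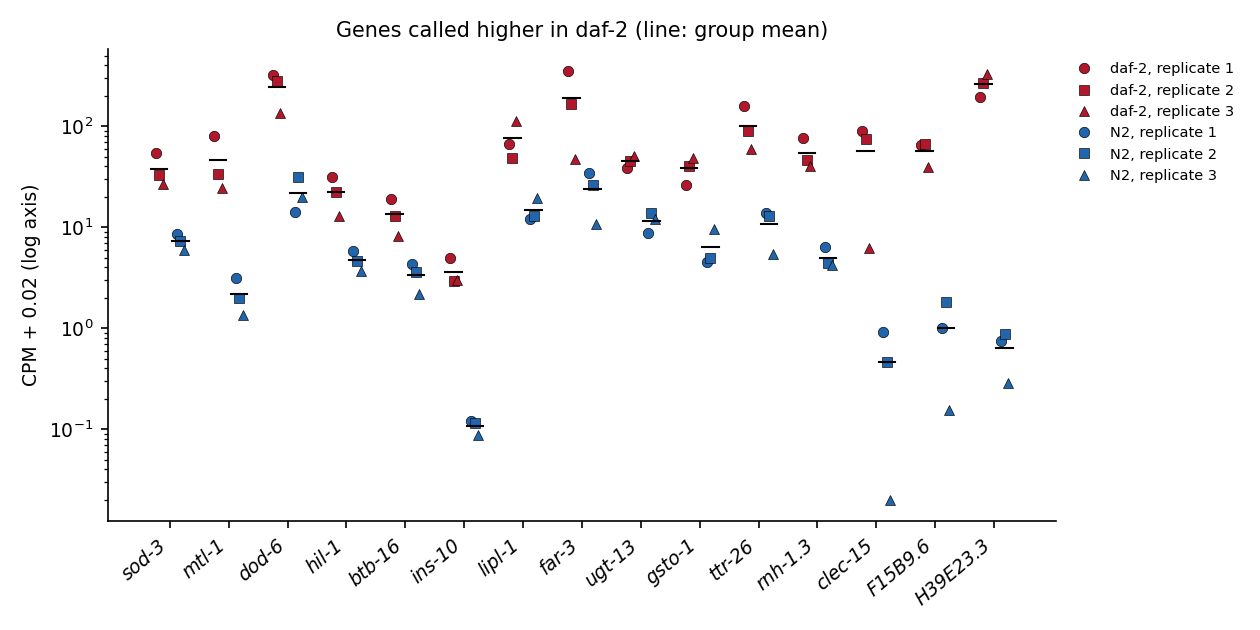
CPM plus 0.02 on a log axis for 15 chosen genes among the 59 called higher in daf-2, with the 3 daf-2 libraries (red) left of the 3 N2 libraries (blue) for each gene, symbols for the replicate number and a line at each group mean. In the 15 plotted genes every daf-2 library lies above every N2 library. Among them far-3 comes closest to overlap, at 46.8 CPM in daf-2 replicate 3 and 34.6 CPM in N2 replicate 1. Several of the plotted genes were named by a rule that required no overlap.

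Antioxidant genes did not move as a class. Of 28 tested antioxidant enzyme and metallothionein genes, 2 rose (sod-3 and mtl-1) and 0 fell, where 0.422% of all tested genes rose. The median was -0.12. The main mitochondrial dismutase gene sod-2 had 138, 96 and 73.6 CPM in daf-2, against 106, 86.4 and 123 CPM in N2, with a log2 fold change of -0.07 and an adjusted p of 0.899 in edgeR. It overlaps the other strand over 21 of its exonic bases. Heat shock protein genes gave 0 calls of 24, with a median of -0.17.

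The pathway that carries the signal was not called at the mRNA level. None of 33 tested genes of the insulin pathway and its partner transcription factors passed the test, and their median log2 fold change was -0.11, with 4 at an unadjusted p under 0.05. daf-2 itself had 81.9, 125 and 102 CPM in daf-2 animals, against 80.2, 99.7 and 194 CPM in N2 (log2 fold change -0.19, edgeR adjusted p = 0.735). daf-16, the FOXO gene, had 103, 159 and 206 CPM in daf-2, against 137, 204 and 154 CPM in N2 (log2 fold change -0.12, edgeR adjusted p = 0.808). The groups overlapped in both genes. The log2 fold changes of the transcription factor genes skn-1, hsf-1 and pqm-1 were -0.19, 0.11 and 0.56, with edgeR adjusted p of 0.673, 0.747 and 0.257. daf-16 and skn-1 overlap genes of the other strand.

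The insulin-like peptide genes encode candidate ligands of the receptor. Of 22 tested, 1 rose and 0 fell, where 0.422% of all tested genes rose, and the median was 0.54. ins-10 had 4.93, 2.94 and 2.95 CPM in daf-2, against 0.0999, 0.0939 and 0.0672 CPM in N2, a log2 fold change of 5.29 ± 0.45 (edgeR adjusted p = 0.0144). The wild-type value rests on 8 counts over 3 libraries, and 74 of 392 exonic bases overlap vps-39 on the other strand. ins-7, an agonist gene that DAF-16 is known to repress, had 0.817, 0.433 and 0.395 CPM in daf-2, against 4.87, 3.47 and 0.202 CPM in N2. Its log2 fold change of -1.95 ± 0.76 did not pass the test (edgeR adjusted p = 0.286), since N2 replicate 3 lay below the mutant libraries.

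Single genes of fat handling and detoxification rose in daf-2. The lysosomal lipase gene lipl-1 had 65.9, 48.8 and 113 CPM in daf-2, against 11.9, 12.8 and 19.5 CPM in N2, a log2 fold change of 2.31 ± 0.22 (edgeR adjusted p = 0.0172). The fatty acid and retinol binding protein gene far-3 had 354, 167 and 46.8 CPM in daf-2, against 34.6, 26.2 and 10.8 CPM in N2, a log2 fold change of 2.72 ± 0.29 (edgeR adjusted p = 0.0232). Both genes lay well above the wild type in each replicate pair, although far-3 overlaps far-5 on the other strand over 50 of its 673 exonic bases and was not called without the block. Over 79 tested fat metabolism genes the median was -0.12, with 1 higher (lipl-1) and 1 lower (acox-1.2). Of all tested genes, 0.422% rose and 0.2% fell.

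Of 61 tested UDP-glucuronosyltransferase genes, whose enzymes attach sugars to foreign and internal compounds, 3 rose (ugt-8, ugt-13 and ugt-18) and 0 fell. Over all tested genes 0.422% rose. ugt-13 had 38.8, 45.4 and 50.2 CPM in daf-2, against 8.82, 13.9 and 12 CPM in N2, a log2 fold change of 1.97 ± 0.21 (edgeR adjusted p = 0.0232). ugt-8 and ugt-13 are near neighbours on chromosome V, between 4903930 and 4911399. The log2 fold changes of ugt-8 and ugt-18 were 3.39 and 3.51. Of 42 tested glutathione transferase genes only gsto-1, an omega class member, passed, at 26.1, 40.1 and 48.2 CPM in daf-2, against 4.52, 4.88 and 9.48 CPM in N2. Its log2 fold change was 2.64 ± 0.25 (edgeR adjusted p = 0.0172), and 52 of its 806 exonic bases overlap kle-2. None of 54 tested cytochrome P450 genes was called, and their median of 0.63 was above that of all genes.

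The genes sqrd-1, hmt-1 and hrg-2 were chosen after their values were seen. sqrd-1, the sulfide quinone oxidoreductase gene, had 20.8, 18.1 and 12.8 CPM in daf-2, against 2.9, 3.07 and 2.22 CPM in N2 (log2 fold change 2.65 ± 0.25, edgeR adjusted p = 0.0172). hmt-1, a half-molecule ABC transporter gene needed for heavy metal tolerance, had 46.9, 76.9 and 73.9 CPM in daf-2, against 12.8, 15.2 and 13.9 CPM in N2 (log2 fold change 2.21 ± 0.22, edgeR adjusted p = 0.0172). The heme-responsive gene hrg-2 had 2.32, 4.79 and 11.8 CPM in daf-2, against 0.425, 0.563 and 0.672 CPM in N2 (log2 fold change 3.2 ± 0.43, edgeR adjusted p = 0.0494). The mutant libraries lay above the wild type in all 3 genes, but hrg-2 was called in only 11 of 20 other fits and not when the chromosome V stretch described further on was left out. sqrd-1 and hmt-1 overlap genes of the other strand.

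Outside the chromosome V stretch, the steepest rise was in a gene of little known function. H39E23.3 (WBGene00044201; chromosome V, 14107811 to 14110051) had 196, 269 and 326 CPM in daf-2, against 0.724, 0.845 and 0.269 CPM in N2. Replicate 3 was its highest mutant library and its lowest wild-type one, so its pair differences ran from 7.95 to 9.93 on the log2 scale. The fitted value was 8.64 ± 0.49 (edgeR adjusted p = 0.0056), the lowest adjusted p of the comparison, shared with clec-15, ilys-5, clec-10 and dod-24. F15B9.6 had 65.7, 66.1 and 39.7 CPM in daf-2, against 0.974, 1.81 and 0.134 CPM in N2 (log2 fold change 6.06 ± 0.52, edgeR adjusted p = 0.0144).

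ttr-26, a transthyretin-related gene, had 157, 88.6 and 58.9 CPM in daf-2, against 13.8, 12.9 and 5.45 CPM in N2 (log2 fold change 3.24 ± 0.24, edgeR adjusted p = 0.00946). rnh-1.3, a ribonuclease H gene, had 76.5, 46.2 and 40.3 CPM in daf-2, against 6.27, 4.44 and 4.17 CPM in N2 (log2 fold change 3.42 ± 0.22, edgeR adjusted p = 0.00836). In both genes replicate 1 was highest and replicate 3 lowest in each genotype, and the groups stayed apart. pals-26, of a family with many members induced by intracellular pathogens, had 7.94, 7.61 and 9.48 CPM in daf-2, against 0.525, 0.407 and 0.336 CPM in N2 (log2 fold change 4.25 ± 0.35, edgeR adjusted p = 0.0139). F45D11.16 is listed under a pair of IDs on chromosome II with identical values, 21.3, 4.51 and 215 CPM in daf-2, against 0, 0 and 2.22 CPM in N2. Their reads cannot be told apart, and the level is carried by replicate 3.

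Several less studied genes that were nearly silent in the wild type rose as well. Y39G8B.7 had 12.9, 18.2 and 16.6 CPM in daf-2, against 0.0749, 0.188 and 0 CPM in N2, a log2 fold change of 7.29. Y9C9A.16 had 12.7, 16.6 and 9.57 CPM in daf-2, against 0.475, 0.594 and 0 CPM in N2, a log2 fold change of 5.21. F17B5.1 had 11.2, 7.89 and 13.8 CPM in daf-2, against 0.699, 0.438 and 0.269 CPM in N2, a log2 fold change of 4.46. In each of the 3 the mutant libraries lay within a narrow range far above the wild type. The saposin-like gene spp-9 had 17.5, 3.59 and 4.65 CPM in daf-2, against 0.0749, 0.0313 and 0 CPM in N2, so that its mean was carried by replicate 1. F48D6.4 was already abundant in the wild type, at 118, 107 and 196 CPM in daf-2 against 30.2, 29.3 and 63.7 CPM in N2, a log2 fold change of 1.82.

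C-type lectin genes, many of them expressed in the gut and regulated in infection, moved both ways. Of 98 tested, 2 rose (clec-15 and clec-18) and 4 fell (clec-3, clec-10, clec-49 and clec-190), with a median of -0.37. Over all tested genes 0.422% rose and 0.2% fell. Without the block clec-3 and clec-49 were not called (edgeR adjusted p = 0.183 and 0.0709). clec-15 had 90.5, 74 and 6.2 CPM in daf-2, against 0.899, 0.438 and 0 CPM in N2 (log2 fold change 7.07 ± 0.4, edgeR adjusted p = 0.0056). Its level in mutant replicate 3 was far below the other mutant libraries and still above every wild-type one. The neighbouring pseudogene WBGene00010400 rose with it, at 7.64, 6.34 and 0.911 CPM in daf-2, against 0, 0.0313 and 0 CPM in N2, with a single count over the N2 group. clec-10 had 0.0327, 0.0618 and 0.0608 CPM in daf-2, against 12.3, 15 and 14.3 CPM in N2 (log2 fold change -7.95 ± 0.39, edgeR adjusted p = 0.0056). The mutant value of clec-10 rests on 5 counts. Of the other lowered lectins, clec-3 and clec-190 overlap genes of the other strand.

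The steepest fall among protein-coding genes was in ilys-5 (WBGene00017691; chromosome X, 6533490 to 6536840), an invertebrate-type lysozyme gene. It had 0.457, 0.804 and 0.608 CPM in daf-2, against 344, 293 and 677 CPM in N2. Per length this was 0.485 CPM per kilobase in daf-2 against 341 in N2, and the log2 fold change was -9.37 ± 0.48 (edgeR adjusted p = 0.0056). No other lysozyme gene of the 9 tested was called. lys-7 and lys-8, both reported DAF-16 targets, had log2 fold changes of 0.61 and -0.1 with edgeR adjusted p of 0.613 and 0.853. None of 32 tested antimicrobial peptide genes was called.

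Genes for CUB-like and dod proteins, a class tied to innate immunity, included 4 of the calls. Of 16 tested, 4 fell and 0 rose, where 0.2% of all tested genes fell. The class median was -0.41 in the fit, and -0.21, -0.61 and 0.36 in the pairs of replicates 1, 2 and 3. dod-24 (WBGene00007875), a gene known to be repressed when DAF-16 is active, had 7.51, 5.38 and 0.972 CPM in daf-2, against 127, 138 and 24.8 CPM in N2. Replicate 3 was lowest in each genotype and the groups stayed apart, at a log2 fold change of -4.46 ± 0.25 (edgeR adjusted p = 0.0056). Without the block the call was lost (edgeR adjusted p = 0.0697). dod-22 had 0.817, 0.309 and 0.547 CPM in daf-2, against 10.8, 10.4 and 6.92 CPM in N2 (log2 fold change -4.1 ± 0.41, edgeR adjusted p = 0.0172).

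F55G11.2 had 0.817, 1.05 and 0.334 CPM in daf-2, against 11.7, 16.3 and 6.45 CPM in N2 (log2 fold change -4 ± 0.3, edgeR adjusted p = 0.00946). C32H11.4 had 5.85, 6.09 and 3.16 CPM in daf-2, against 37.9, 41 and 16.8 CPM in N2 (log2 fold change -2.62 ± 0.23, edgeR adjusted p = 0.0146). All 4 genes lie on chromosome IV between 12921264 and 12969289, C32H11.4 within 20 kb of dod-24 and dod-22 beside F55G11.2. The other 12 tested genes of the class were not called, and F20G2.5 among them had a log2 fold change of 2.79 ± 0.84 (edgeR adjusted p = 0.214). Of 18 tested genes reported as lowered through DAF-16, 2 fell (dod-22 and dod-24), 0 rose, and the median was -1. Their medians in the pairs of replicates 1, 2 and 3 were -0.76, -0.68 and 0.1, and 5 of the 18 lay above 0 in the fit.

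**Figure D3:**
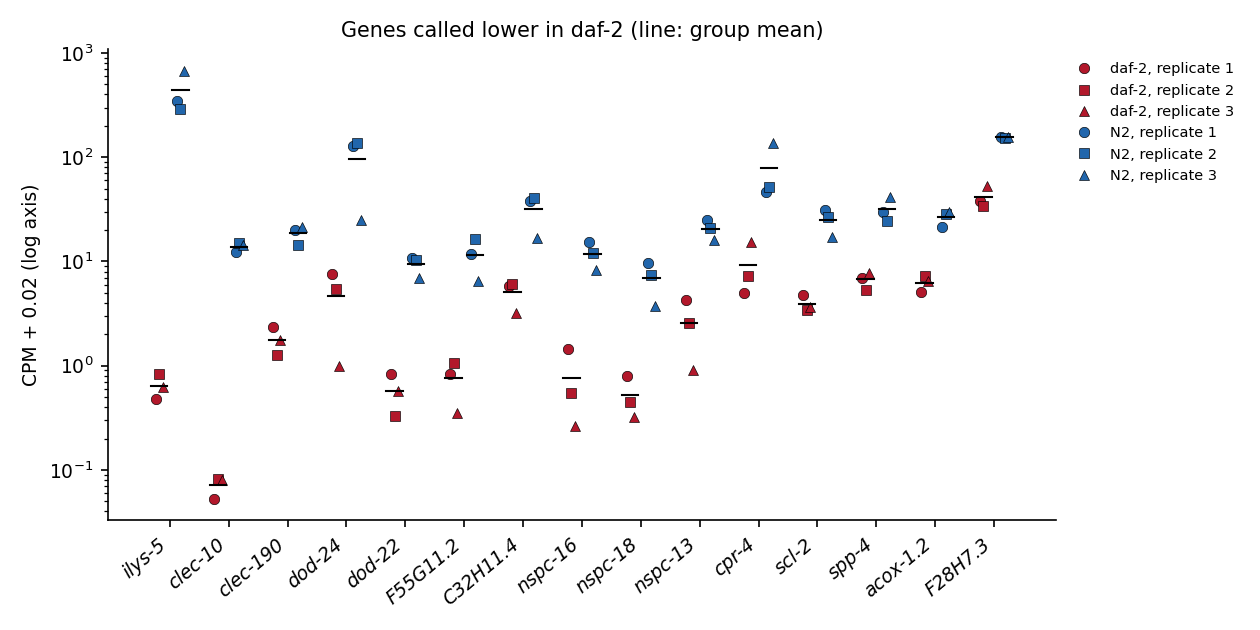
CPM plus 0.02 on a log axis for 15 chosen genes among the 28 called lower in daf-2, with the 3 daf-2 libraries (red) left of the 3 N2 libraries (blue) for each gene, symbols for the replicate number and a line at each group mean. In the 15 plotted genes every daf-2 library lies below every N2 library, with the widest gap among them in ilys-5, which had under 1 CPM in each daf-2 library and at least 293 CPM in each N2 library. Many of the plotted genes were named by a rule that required no overlap, and called genes with overlap, such as cpr-1, are not plotted.

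A family of short nematode-specific peptides, nspc, held 4 of the lowered genes. Of 18 tested members 4 fell (nspc-13, nspc-16, nspc-17 and nspc-18) and 0 rose, where 0.2% of all tested genes fell. The genotypes did not overlap in 15 of them, where 18.1% of all tested genes had no overlap. The family median was -1.73, against 0.01 over all genes. nspc-13 had 4.21, 2.54 and 0.881 CPM in daf-2, against 24.7, 21.1 and 15.9 CPM in N2 (log2 fold change -3.22 ± 0.38, edgeR adjusted p = 0.0298). nspc-16 had 1.44, 0.526 and 0.243 CPM in daf-2, against 15.3, 12 and 8.34 CPM in N2 (log2 fold change -4.24 ± 0.42, edgeR adjusted p = 0.0172). nspc-16, nspc-17 and nspc-18 lie within 14523575 to 14527659 on the X chromosome. The family's summed level was 180, 111 and 73.7 CPM in daf-2, against 384, 341 and 248 CPM in N2, and reads of members that resemble each other may have been shared.

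The pud genes, which encode proteins whose amounts are known to differ in daf-2 mutants, had no call. All 6 tested lay lower in daf-2, with a median of -1.63, and their summed level was 883, 533 and 1501 CPM in daf-2, against 3401, 2183 and 5386 CPM in N2. pud-4 came closest to the threshold, at 111, 68.3 and 75.2 CPM in daf-2, against 301, 174 and 240 CPM in N2 (log2 fold change -1.49 ± 0.21, edgeR adjusted p = 0.0508). From replicates 1 and 2 alone all 6 were called lower in the blocked fit and 3 in the fit without the block. Of all 13530 genes tested there, 898 and 72 were called lower. The blocked fit of these replicates has 1 residual degree of freedom. pud genes occur as near-identical copies, so the split of reads among them is uncertain.

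Among the lowered genes were 3 proteases. Of 77 tested autophagy and lysosome genes 3 fell (cpr-1, cpr-4 and asp-17) and 0 rose, where 0.2% of all tested genes fell. The median was -0.21. cpr-4, a cathepsin B-like protease gene, had 4.97, 7.24 and 15.2 CPM in daf-2, against 45.9, 52.2 and 138 CPM in N2 (log2 fold change -3.08 ± 0.21, edgeR adjusted p = 0.00841). Replicate 3 was highest in each genotype, and 21 of 1129 exonic bases overlap a gene of the other strand. cpr-1, another cathepsin B-like gene, had 0.784, 2.41 and 6.77 CPM in daf-2, against 5.17, 12.4 and 48.9 CPM in N2, so that the groups overlapped while the pair differences were -2.62, -2.33 and -2.84 (log2 fold change -2.64 ± 0.25, edgeR adjusted p = 0.0172). Without the block none of the 3 was called, with edgeR adjusted p of 0.366 for cpr-1, 0.0591 for cpr-4 and 0.137 for asp-17.

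Other genes lowered in daf-2 had roles in lipids or unknown roles. acox-1.2, a peroxisomal acyl-CoA oxidase gene, had 5.1, 7.17 and 6.5 CPM in daf-2, against 21.5, 28.4 and 29.5 CPM in N2 (log2 fold change -2.08 ± 0.22, edgeR adjusted p = 0.022). spp-4, a saposin-like gene, had 6.99, 5.32 and 7.81 CPM in daf-2, against 29.9, 24.6 and 41.1 CPM in N2 (log2 fold change -2.23 ± 0.22, edgeR adjusted p = 0.0172). The secreted SCP-like protein gene scl-2 had 4.7, 3.37 and 3.65 CPM in daf-2, against 31.2, 26.5 and 17.2 CPM in N2 (log2 fold change -2.65 ± 0.26, edgeR adjusted p = 0.0172). All daf-2 libraries lay well below the wild type in these 3 genes. The acid ceramidase gene asah-2 had 34.2, 32.3 and 21 CPM in daf-2, against 87.3, 97.8 and 50.7 CPM in N2, the smallest of the called changes (log2 fold change -1.41 ± 0.19, edgeR adjusted p = 0.0494). The acyltransferase-like gene oac-20 had 3.23, 3.68 and 5.56 CPM in daf-2, against 19.7, 26.5 and 19.2 CPM in N2 (log2 fold change -2.41). asah-2 and oac-20 overlap genes of the other strand. F28H7.3 had 38.3, 33.9 and 53.5 CPM in daf-2, against 158, 153 and 158 CPM in N2 (log2 fold change -1.93 ± 0.21, edgeR adjusted p = 0.0245). Its wild-type libraries lay within 153 to 158 CPM, far above the mutant ones.

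The summed level of 19 intestine markers was 2206, 2700 and 983 CPM in daf-2, against 3250, 4607 and 3806 CPM in N2, and 1 of them, cpr-1, was called. In N2 most of the sum came from the aspartyl protease gene asp-1, at 1751, 2709 and 2055 CPM. In daf-2 asp-1 had 822, 993 and 37.7 CPM, a smaller part of the sum (not called, edgeR adjusted p = 0.316). elt-2, the transcription factor gene that defines the intestine, had 21.7, 28.9 and 11.7 CPM in daf-2, against 21.7, 28.5 and 9.61 CPM in N2, a log2 fold change of 0.1. All 19 markers were detected, and the median over them was -0.23.

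A pair of noncoding entries had the most negative fold changes. F31C3.16 was at 0 in all daf-2 libraries, against 1.17, 3.79 and 137 CPM in N2, and F31C3.13 was at 0 in all daf-2 libraries, against 1.1, 3.13 and 92.1 CPM in N2. Against a floor of 3 counts over the group, these are at least 1517-fold and 1027-fold lower in daf-2. On chromosome I, F31C3.13 lies entirely opposite the ribosomal RNA gene rrn-1.1, and F31C3.16 lies opposite WBGene00004677 over 290 of its 299 bases. Both are overlapping genes, and the wild-type level rests on replicate 3.

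Called genes were unevenly spread over the chromosomes. Chromosome V held 40 calls, 1.48% of its tested genes, while the other chromosomes ranged from 0.271% (III) to 0.494% (X). A short stretch of V around lsy-27 (17348665 to 17350193) and fbxb-7 (17377406 to 17379233) held 9 of the 40. Its genes had nearly no counts in N2: over 82 listed genes the sums were 2306, 2439 and 2367 in daf-2, against 5, 5 and 0 in N2. Without the daf-2 mutation the pfd-6 strain had 1687, 1623 and 2172, and the double mutant had 1849, 2160 and 1483, so that N2 alone of the 4 strains lacked these counts.

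Of 14 tested genes in the stretch, 9 were called, all higher. lsy-27, a zinc finger gene known from neuron asymmetry, had 19.9, 29.3 and 8.72 CPM in daf-2 and 0 counts in N2, which makes it at least 559-fold higher. It overlaps the called gene skr-5 of the same stretch on the other strand over 59 of its 1050 exonic bases. fbxb-7, an F-box gene, had 9.44, 7.11 and 9.17 CPM in daf-2 and 0 counts in N2, at least 248-fold higher. The F-box gene fbxa-189 had 7.97, 6.96 and 9.17 CPM in daf-2, against 0.05, 0.0313 and 0 CPM in N2 (log2 fold change 7.71 ± 0.53, edgeR adjusted p = 0.00854). fbxb-7 and fbxa-189 were the only F-box and MATH-BATH genes called among 277 tested, where 0.422% of all tested genes rose. With the genes of the stretch left out of the fit, 72 genes were called, 46 higher and 26 lower, all of them among the 87.

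Several highly expressed classes differed mainly in the third pair. The 79 tested ribosomal protein genes had median differences of -0.09, -0.33 and -3.97 in the pairs of replicates 1, 2 and 3, and their summed level was 119132, 101166 and 10404 CPM in daf-2, against 128887, 126901 and 125094 CPM in N2. The 107 tested cuticle collagen genes had 0.54, 0.04 and -3.03. The 61 tested sperm genes had 0.26, -0.15 and -3.48, with a summed level of 220 to 246 CPM in daf-2, against 232 to 383 CPM in N2. None of these genes was called. Muscle markers were at -0.09, -0.26 and -1.76 over 20 genes, with summed levels of 2403 to 8168 CPM in daf-2 and 5343 to 9735 CPM in N2. In the ribosomal protein and collagen genes it was daf-2 replicate 3 that stood apart, while the summed sperm level was highest in N2 replicate 3. With daf-2 replicate 3 left out and no block, the median was -0.14 for ribosomal proteins (-0.71 with all 6 libraries and no block) and -0.97 for sperm genes (-1.42). What sets these libraries apart was not tested.

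Other classes had medians of 1 sign in all 3 pairs with few or no calls. The vitellogenin genes, which encode yolk proteins made in the intestine, had medians of -0.96, -1.03 and -1.91 over 6 genes. vit-5 had 12303, 20244 and 12013 CPM in daf-2, against 26936, 44793 and 30032 CPM in N2 (log2 fold change -1.2 ± 1.14, edgeR adjusted p = 0.577). From replicates 1 and 2 alone, 5 of the 6 were called lower in the blocked fit and 0 in the fit without the block. Of all 13530 genes tested there, 898 and 72 were called lower. The F-box and MATH-BATH genes had medians of 0.43, 0.58 and 1.23, with 247 of 277 above 0 in the fit and the 2 calls of the V stretch. Over all tested genes 0.422% were called higher. The 33 proteasome subunit genes had medians of -0.22, -0.11 and -1.1.

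**Figure D4:**
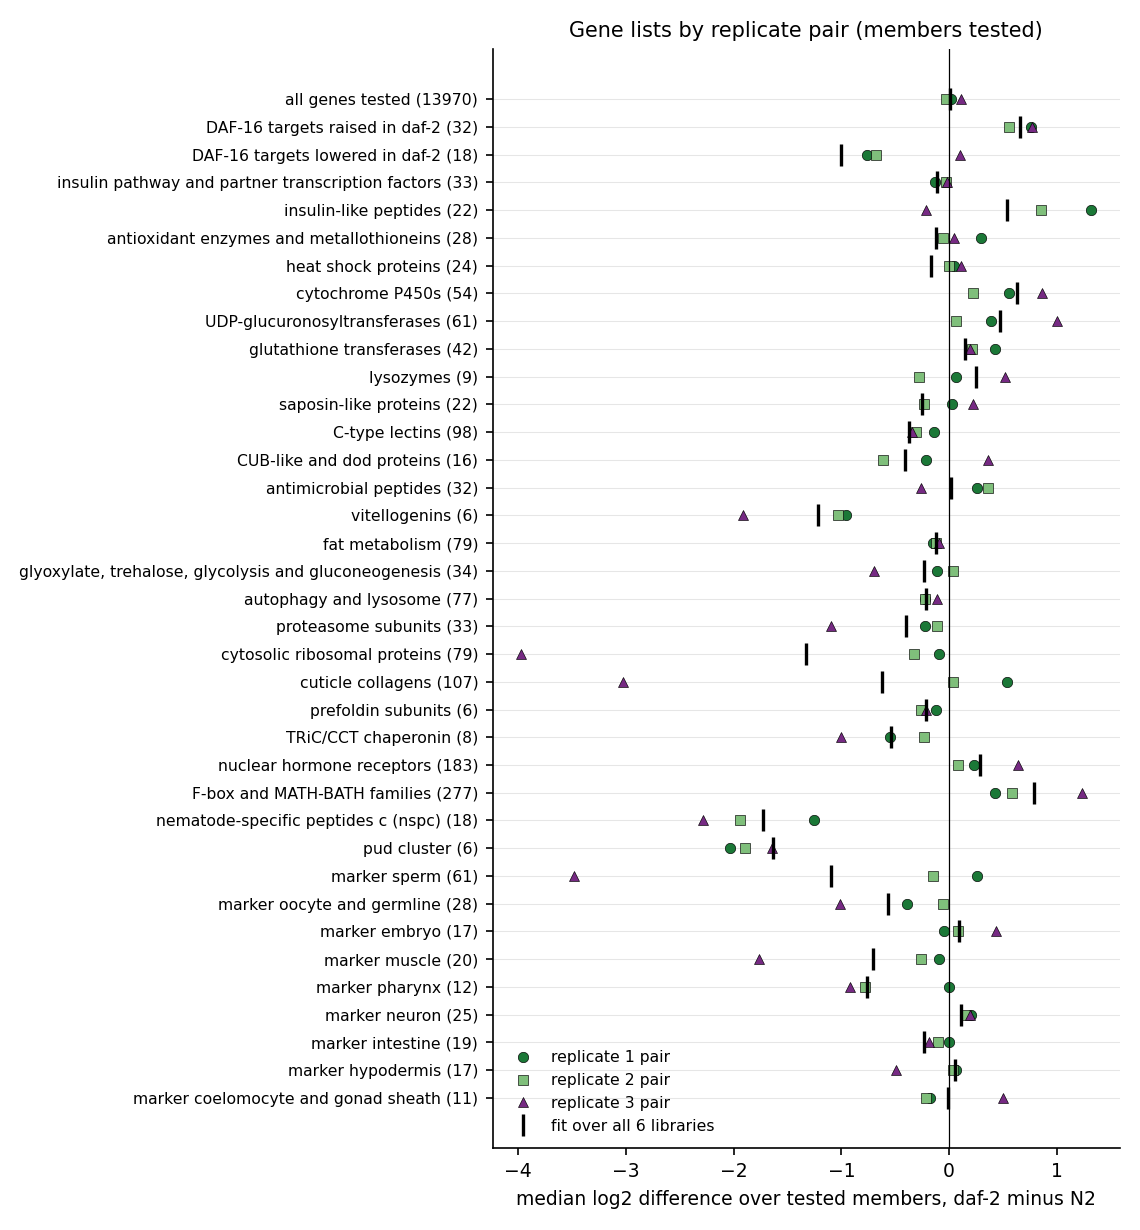
Median log2 difference, daf-2 minus N2, over the tested members of 36 gene lists and over all genes, for each replicate pair (coloured symbols) and for the fit over all 6 libraries (black ticks); the number tested is in brackets. Ribosomal proteins, collagens and sperm genes lie at -3.97, -3.03 and -3.48 in the replicate 3 pair and within 0.54 of 0 in the others, while the nspc and pud genes lie below -1 in each pair.

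Replicates 1 and 2 were then taken alone, and their calls followed in the third pair, which they do not share. The blocked fit called 2347 of 13530 genes (17.3%), 1449 higher and 898 lower, and the fit without the block called 226 (1.67%). Of the 1449 genes higher in replicates 1 and 2, 79.1% were higher in the third pair, where 53.4% of all tested genes were, with a median of 0.99. Of the 898 lower ones, 76.7% were lower in the third pair, against 46.5% of all tested genes, with a median of -0.75. In the pfd-6 background, measured in other libraries, 66.7% of the 1449 were higher in the double mutant than in pfd-6, against 51.2% of all tested genes, and 56% of the 898 were lower, against 48.8%. For the 154 genes higher in the fit without the block the share was 94.2%, and for the 72 lower ones it was 93.1%. The DAF-16-raised genes gave 16 higher and 1 lower of 32 in the blocked fit of replicates 1 and 2, and 10 higher and 0 lower without the block. Among them were dod-3, at 48.9, 42.9 and 4.13 CPM in daf-2 against 5.17, 4.13 and 2.35 CPM in N2, and the ferritin gene ftn-1, at 12, 8.26 and 2.73 CPM in daf-2 against 2.6, 2.16 and 0.269 CPM in N2.

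**Figure D5:**
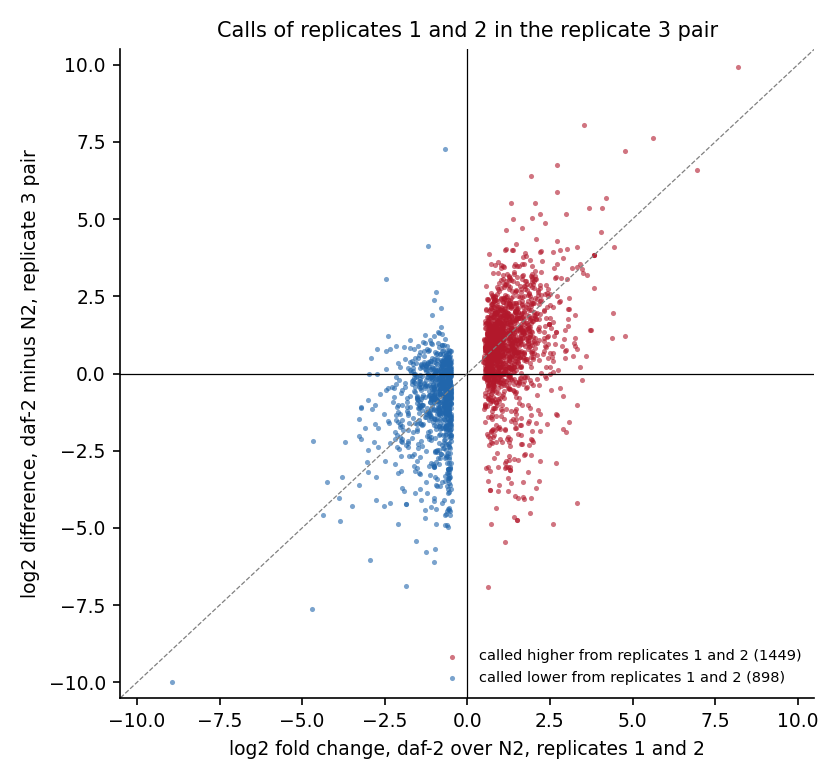
Log2 difference in the replicate 3 pair, daf-2 minus N2 (vertical axis), against the log2 fold change from replicates 1 and 2 (horizontal axis) for the 2347 genes called from replicates 1 and 2; the dashed line marks equal values. Of the genes called higher 79.1% lie above 0 on the vertical axis, and of those called lower 76.7% lie below it.

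The same receptor mutation was measured again in the pfd-6 background, in 6 libraries that share none with the comparison above. Here a library of the reference group stood apart. Ribosomal protein genes took 0.62% of the counts of pfd-6 replicate 3, against 16.16% and 10.41% in replicates 1 and 2. The median log2 fold change of these genes was 0.94 here, against -1.33 in the wild-type background. Between the pfd-6;daf-2 double mutant and pfd-6, 1502 of 15134 tested genes were called (9.92%), 925 higher and 577 lower, in the edgeR fit over 12 libraries with the block. Of the 50 genes raised in daf-2 outside the V stretch, 48 were higher there as well and 36 were called higher, at a median of 2.2, against 3.53 in the wild-type background. Of the 28 lowered genes, 25 were lower and 19 were called lower, at a median of -2.8, against -3.32 in the wild-type background. F08D12.3 was called in opposite directions, with 2.86, 5.35 and 8.42 CPM in the double mutant against 0.579, 4.3 and 0.468 CPM in pfd-6 (log2 fold change 2.15, edgeR adjusted p = 0.0495). In the wild-type background it had 0.784, 2.66 and 1 CPM in daf-2, against 3.62, 12.4 and 8 CPM in N2 (log2 fold change -2.46, edgeR adjusted p = 0.0442), and the difference between backgrounds was not called (edgeR adjusted p = 0.0571). Leaving out 1 library at a time moved the 1502 calls between 146 (without double mutant replicate 1) and 1472, and the fit without the block gave 500.

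sod-3 had 21.4, 22.2 and 24.1 CPM in the double mutant, against 5.54, 3.74 and 3.88 CPM in pfd-6 (log2 fold change 2.4 ± 0.26, edgeR adjusted p = 0.00326). mtl-1 had 10.8, 13.3 and 34.1 CPM in the double mutant, against 1.68, 1.17 and 0.303 CPM in pfd-6 (log2 fold change 4.46 ± 0.73, edgeR adjusted p = 0.0105). ilys-5 had 3.28, 2.85 and 2.66 CPM in the double mutant, against 533, 459 and 39.6 CPM in pfd-6 (log2 fold change -6.78 ± 0.92, edgeR adjusted p = 0.00642). In each of these genes no double mutant library overlapped a pfd-6 library. H39E23.3 had 15.1, 27.1 and 45.6 CPM in the double mutant, against 0.366, 1.13 and 0.11 CPM in pfd-6 (log2 fold change 5.87 ± 0.7, edgeR adjusted p = 0.00353). Genes that lay close to pfd-6 levels in the double mutant included hmt-1, at a log2 fold change of 0.4, far-3, at 0.32, and clec-49, at 0.15, and none of the 3 was called there.

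The difference of the daf-2 effect between the backgrounds was called for 36 of 15134 genes (0.238%). All 9 called genes of the V stretch were among them, with a median effect of 0.42 in the pfd-6 background, against 8.46 in the wild-type background. In that stretch only N2 among the strains nearly lacked counts. Outside the stretch the called genes with such a difference were clec-10 and F17E9.2, and 0 genes were called for the difference by edgeR when the stretch was left out of the fit, with 3932 at an unadjusted p under 0.05. DESeq2, with the stretch kept, called 1914. F17E9.2 had 1.13, 0.897 and 0.295 CPM in the double mutant, against 5.7, 2.61 and 4.65 CPM in pfd-6, the opposite direction to that in the wild-type background, where it had 15.6, 6.62 and 14.2 CPM in daf-2 and 2.77, 1.38 and 2.29 CPM in N2. clec-10 had 1.48, 2.07 and 0.689 CPM in the double mutant, against 21.2, 17.1 and 21.5 CPM in pfd-6, lower in both backgrounds. hmt-1, far-3 and clec-49 did not pass the test of the difference (edgeR adjusted p = 0.0796, 0.0723 and 0.071).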

How the data were processed

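Gene-level expected counts were deposited for each library, per the file headers, and were used as given after rounding to whole numbers. Per the submitters' processing notes, the tools were RSEM 1.3.1, R 3.1.3, StringTie 1.3.3, limma 3.24.15 and HISAT2 2.0.5, and the genome builds WBcel235 and ce11, with no role given for any. Positions and gene names came from the Ensembl WBcel235 annotation, which held 46817 of the 46904 listed IDs. Genes with at least 10 counts in at least 3 of the 6 libraries were tested with edgeR 4.0.16 in R 4.3.3, with TMM scaling, the replicate number as a block and a quasi-likelihood F test. The pfd-6 background and the difference between backgrounds were tested in a fit over all 12 libraries.

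Same-numbered libraries deviated together, with correlations of 0.493, 0.278 and 0.331 between their deviations from the genotype mean. Those of unlike-numbered libraries ran from -0.402 to 0.135, and the numbers were taken as pairs. Deviations within a genotype are tied to each other by their shared mean, so these correlations are not independent. The labels call the libraries biological repeats, and p-values measure the spread between them that remains after the block. The SE after each ± comes from the same quasi-likelihood fit. Floors of 3 counts cover counting error only. Members and gene lists were chosen with earlier results of these data known. Genes were named by a rule: among calls with no overlap and at least 10 CPM in the higher genotype, the 15 steepest rises and 15 steepest falls; the 8 called genes of highest mean CPM; up to 4 called members of each list by smallest p, or up to 2 of highest CPM where none was called; chosen pathway genes; and the chromosome V stretch. Named outside it, after their values were seen, were asp-1, elt-2, ftn-1, hmt-1, ins-7, lys-7, lys-8, tts-1, vit-5, pals-26, sqrd-1, F20G2.5, WBGene00010400, hrg-2, clec-3, clec-49, dod-3, pud-4, F17E9.2, F08D12.3 and btb-16, and the overlap partners of called genes. On counts simulated from the daf-2 and N2 libraries for 13706 genes, the same fit called 6.06% of genes altered 2-fold. It called 86.4% at 4-fold, 95.6% at 8-fold and 10 unaltered genes. The simulation held no replicate effect and no library that stood apart, and genes with a low mean CPM were left unaltered. These shares therefore need not hold for the measured libraries. Alternatives were DESeq2 1.42.0, limma-voom (limma 3.58.1), other scalings, filters and thresholds, a gene-length offset, each library left out, fits without the block, and, chosen after seeing the data, fits without overlapping genes and of replicates 1 and 2 without the block.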

Additional observations from a re-analysis of the deposited data

Results flagged for a closer look

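In 11 of the 87 called genes the log2 fold change with daf-2(e1370) differed between the wild-type and pfd-6 backgrounds, by the edgeR test of the difference. Positive values are larger in the wild-type background (daf-2 against N2) than in the pfd-6 background (double mutant against pfd-6). The chromosome V stretch had nearly no counts in N2, with sums of 5, 5 and 0, against 1687, 1623 and 2172 in pfd-6. The receptor is intact in both of these strains. The differences there on the log2 scale were 7.94 for skr-5, 5.46 for C18D4.6, 10.2 for WBGene00007677, 11.61 for lsy-27 and 9.15 for F47H4.2. They were 6.6 for WBGene00009838, 8.05 for fbxa-189, 7.8 for Y20C6A.1 and 10.55 for fbxb-7. Fitted values against N2 libraries at or near 0 depend on the prior count and are no bounds. Outside the stretch the differences were -4.09 for clec-10 (adjusted p = 0.0296) and 4.87 for F17E9.2 (adjusted p = 0.017). Both calls were lost when the stretch was left out of the fit.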

How the results depend on the processing

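All 87 calls kept their sign in every alternative that tested them. Their number was 254 with all 12 libraries in the fit, 764 with DESeq2, 141 with limma-voom, 211 with upper quartile scaling, 416 with no low count filter and 17 at an adjusted p under 0.01. Upper quartile scaling moved the median of all genes to 0.15 on the log2 scale. Without the replicate block it was 93, of which 59 were among the 87. Replicates 1 and 2 alone gave 2347 calls with the block and 226 without it. Leaving out 1 library at a time with the block kept gave 10 to 2597 calls. In such a fit the partner of the left-out library no longer informs the genotype difference, so these counts reflect replicate pairs, not single libraries. The libraries that moved the count by over 1.5 times were N2 replicate 2 (21), N2 replicate 3 (2597), daf-2 replicate 2 (10) and daf-2 replicate 3 (2390). The cause was not tested.

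In the pfd-6 background the 1502 calls became 500 without the replicate block, 2977 with DESeq2, 2496 without replicate 3 of daf-2 and of pfd-6, and 146 to 1472 with 1 library left out. The count moved by over 1.5 times without replicate 1 of pfd-6 (294) and without replicates 1, 2 and 3 of the double mutant (146, 467 and 254). The 36 called differences between backgrounds became 21 without the replicate block, 1914 with DESeq2, 55 without replicate 3 of daf-2 and of pfd-6, 0 without the V stretch, and 3 to 64 with 1 library left out. That count was within 1.5 times of 36 only when pfd-6 replicate 2 was the library left out. Depth set a floor of 0.0313 CPM in daf-2 and 0.0345 CPM in N2 over a group.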
